A study of Mus musculus with 60 samples.

Results

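Astrocytes from AD mice at 12 months of age were compared with astrocytes from AD mice at 2 months. The comparison covers every gene with at least 0.5 FPKM in either group, which kept 15590 of the 35999 genes in the deposited table. FPKM counts the sequenced fragments of a gene per base of its exons and relative to the size of the library, so that levels can be compared between genes and between libraries. Of the genes kept, 13862 reached the limit at both ages, 800 at 12 months alone and 928 at 2 months alone, and the last 2 sets had to differ to be kept that way. Where a list's calls held such genes, the count over members that reached the limit at both ages stands beside it. Next to the limit, Gm45774 (0.501 FPKM at 12 months, 0.247 FPKM at 2 months) was kept and Nrg2 (0.49998 and 0.309 FPKM) was not.

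The study profiled astrocytes and microglia of male AD and WT mice at 5 ages by RNA-seq. AD mice carried the APPswe/PS1ΔE9 transgenes under a prion promoter that is active in neurons and glia, and WT mice were C57BL/6J littermates without them. The 4 astrocyte groups compared here were AD mice at 12 months, AD mice at 2 months, WT mice at 12 months and WT mice at 2 months, with 3 libraries a group. Group values of AD and WT astrocytes at 4, 6 and 9 months entered the scaling and the age series. The AD 4-month group also entered an alternative baseline. Each library came from the whole brain of 1 mouse, which was dissociated, freed of myelin and sorted for the astrocyte surface antigen ACSA2 before full-length cDNA amplification. The AD 12-month and AD 2-month mice carried the same transgenes, so age and the time spent under transgene expression cannot be told apart between them.

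Astrocytes clear glutamate and potassium from the synaptic cleft, ensheath blood vessels, supply neurons with lactate and with lipoprotein-bound cholesterol, and secrete factors that build or remove synapses. They also respond to injury and to amyloid with a set of changes called reactivity, which includes complement components, protease inhibitors and chemokines. In aged brains these cells are known for a rise of such transcripts and for a decline of cholesterol synthesis.

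The deposited table holds 1 value a group, the mean of its 3 libraries. Because each FPKM is a whole number of fragments divided by the gene length and the library size, the 3 library values behind a group value could be solved for most genes, a route chosen after the data had been seen. Values of all 6 AD libraries were recovered for 13366 of the 15590 genes. The libraries held 22.4, 20.2 and 19.1 M fragments in AD 12-month astrocytes and 21.04, 19.4 and 19.3 M in AD 2-month astrocytes. They are listed from the deepest to the shallowest throughout, and which mouse each one is cannot be read from the table.

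Differences are given in 2 forms, both as AD 12 months minus AD 2 months on the scale of log2(FPKM + 0.1), which understates the change of low genes. For the 13366 genes with library values, the difference is limma's estimate ± its standard error (n = 3 libraries a group), with p-values adjusted by the Benjamini-Hochberg method over all genes tested. A gene rose or fell where the adjusted p was below 0.05 and the difference was beyond 0.5, the limits the study used. For the other 2224 genes, among them most of the abundant astrocyte transcripts, the difference between the 2 group values is given without a test.

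By group values, 2912 genes (18.7%) lay above a log2 difference of 0.5 and 2819 genes (18.1%) below -0.5. With limma, 1399 genes (10.5%) rose and 1450 genes (10.8%) fell, and 5811 had an unadjusted p below 0.05. The shares of 10.5% and 10.8% hold for all genes tested and belong beside every limma count of a list below. Those of 18.7% and 18.1% belong beside every count by group value. The 3 libraries of a group correlated with each other at 0.950 to 0.961 in AD 12-month astrocytes and at 0.945 to 0.953 in AD 2-month astrocytes (Pearson, across genes, which are not independent replicates). The first principal component of the 12 AD and WT libraries (36.1% of the variance) placed the AD 12-month libraries at 49.4 to 58.4, the AD 2-month libraries at -27.7 to -24.2, the WT 12-month libraries at 11.03 to 16.02 and the WT 2-month libraries at -42.7 to -38.0. No library overlapped another group on this axis.

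**Figure D1:**
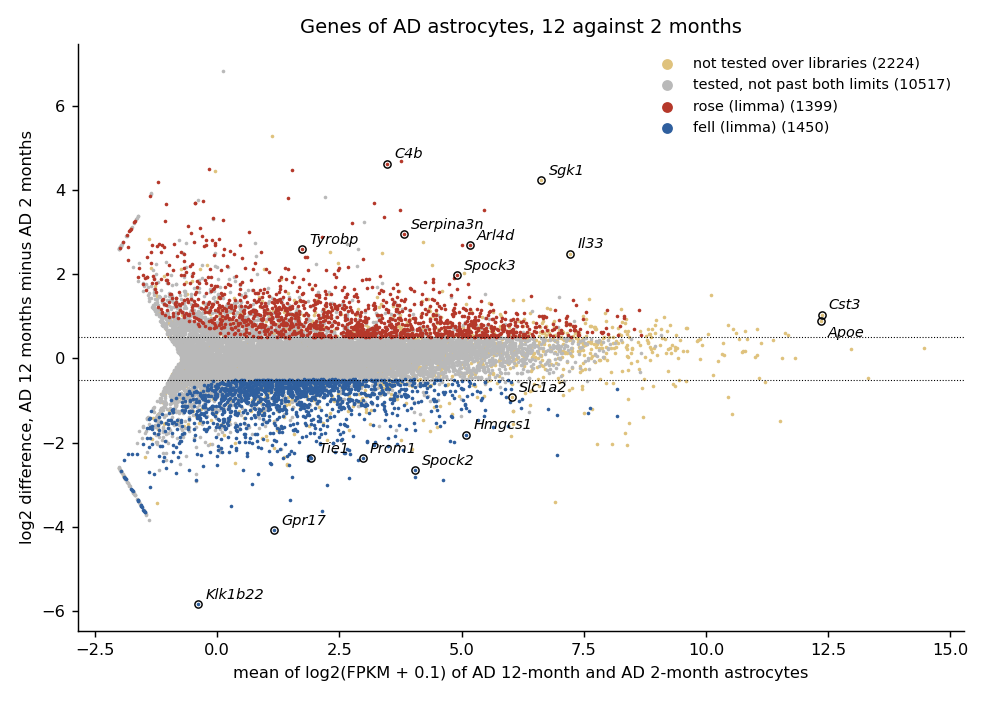
Log2 difference of AD 12-month minus AD 2-month astrocytes (vertical axis) against the mean level of both groups (horizontal axis, log2(FPKM + 0.1)) for the 15590 genes. Red marks the 1399 genes that rose and blue the 1450 that fell by limma, grey the tested genes within the limits and yellow the 2224 genes without library values; dotted lines are at 0.5 and -0.5, and named genes are circled. C4b stands at 4.63 and Gpr17 at -4.09 by group values.

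The sorted population was checked first. Atp1b2, which encodes the ACSA2 antigen itself, stood at 57.2 FPKM in AD 12-month astrocytes and 124 FPKM in AD 2-month astrocytes (log2 difference -1.10; not testable). The 18 homeostatic astrocyte markers summed to 2670.1 FPKM at 12 months and 2325 FPKM at 2 months, with a median difference of -0.13. Without Glul, the 1 member above 0.5, the sums were 1884 and 1923 FPKM. By group value 6 of the 18 lay below -0.5, and of 9 tested 2 fell (Slc4a4 and Kcnj10) and none rose. In each leave-one-out fit other than that without the deepest 2-month library 1 fell. The transcription factor Sox9 (28.9, 20.7 and 22.6 FPKM in the 12-month libraries, against 28.9, 26.3 and 29.7 FPKM in the 2-month libraries) and the folate enzyme Aldh1l1 (9.799, 8.75 and 12.8 FPKM, against 11.5, 14.2 and 14.05 FPKM) overlapped between the ages.

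Transcripts of other cells were present in both groups. The 13 mature oligodendrocyte markers summed to 17095 FPKM in AD 12-month astrocytes and 22912 FPKM in AD 2-month astrocytes, above the astrocyte markers at both ages. Endothelial markers summed to 763 FPKM at 12 months and 2716 FPKM at 2 months, microglial markers to 50.4 and 23.5 FPKM, and neuronal markers to 36.5 and 32.3 FPKM. No neutrophil marker of 9 and 3 of 9 markers of border macrophages and monocytes reached 0.5 FPKM. In bulk samples of this kind, fewer cells of a type and less RNA per cell cannot be told apart.

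The genotype was checked with the transgene targets. App stood at 819 FPKM in AD 12-month and 609 FPKM in AD 2-month astrocytes, against 587 FPKM in WT 12-month and 638 FPKM in WT 2-month astrocytes. The counting cannot separate the endogenous transcript from a transgene that shares its sequence. The prion gene Prnp, whose promoter drives the transgenes, was listed at 1095 and 801 FPKM in AD and 831 and 669.9 FPKM in WT at 12 and 2 months. Ddx3y, which is on the Y chromosome, stood at 26.8 FPKM in AD 12-month and 33.3 FPKM in AD 2-month astrocytes of these male mice, and Xist, which is transcribed from the inactive X of females, did not reach 0.5 FPKM in either.

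The complement gene C4b and the reactive astrocyte gene Serpina3n rose. C4b, the complement component that is cleaved after C1 activation, stood at 29.8, 60.8 and 75.2 FPKM in the 3 AD 12-month libraries, against 2.04, 2.92 and 1.46 FPKM in the AD 2-month libraries, with no overlap (log2 difference 4.58 ± 0.39, adjusted p = 0.00284). Serpina3n, a secreted inhibitor of serine proteases and a marker of reactive astrocytes, had 22.6, 44.6 and 50.04 FPKM at 12 months, against 4.12, 7.66 and 3.21 FPKM at 2 months (2.96 ± 0.40, adjusted p = 0.00556). In both genes the deepest 12-month library was the lowest of the 3 and still above every 2-month library.

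Of 10 complement genes kept, 5 of 9 tested rose and 1 fell, against 10.5% and 10.8% of all genes tested. The C1q chains C1qa (1.22 ± 0.20, adjusted p = 0.00884) and C1qb (1.42 ± 0.27, adjusted p = 0.0137), which start the classical pathway and are made mostly by microglia, rose with C4b. C1qc also rose (1.06 ± 0.27, adjusted p = 0.0289) but kept its call in 2 of the 6 fits that left out 1 library. Cd55, which protects cells from complement by speeding the decay of its convertases, rose to 2.04, 1.86 and 1.696 FPKM in the 12-month libraries, against 1.097, 0.764 and 0.928 FPKM in the 2-month libraries (0.95 ± 0.17, adjusted p = 0.0107). C1s1, the C1 protease that cleaves C4, averaged 1.799 FPKM at 12 months and 1.02 FPKM at 2 months and did not pass the test (adjusted p = 0.05204).

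Among the cytokine and chemokine genes 6 of 15 tested rose and 1 fell, or 5 and 1 of the 13 that reached 0.5 FPKM at both ages. Ccl2, which attracts monocytes, had 4.35, 5.39 and 3.59 FPKM in the AD 12-month libraries, against 1.59, 1.45 and 1.18 FPKM in the AD 2-month libraries (1.59 ± 0.18, adjusted p = 0.00412). Ccl3 (1.01 ± 0.19, adjusted p = 0.0129) and Ccl4 (1.25 ± 0.16, adjusted p = 0.00481), chemokines that microglia also produce, rose at lower levels, below 2 FPKM in each library. The interferon-induced Cxcl10 rose by 1.35 and Il34, a ligand of the CSF1 receptor that maintains microglia, by 0.75, but each kept its call in only 1 of the 6 leave-one-out fits. The alarmin Il33, too abundant for library values at 12 months, stood at 352 FPKM in AD 12-month astrocytes, against 62.8 FPKM in AD 2-month astrocytes (group difference 2.50). The opposite direction was seen for Cxcl12, the ligand of CXCR4, which fell to 6.91, 9.91 and 10.2 FPKM, against 44.8, 21.97 and 22.6 FPKM (-1.65 ± 0.30, adjusted p = 0.0119). Cxcl12 is also strongly expressed by endothelial cells, whose 15 markers were all lower at 12 months. The part of these cells in the fall of Cxcl12 was not tested.

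The classical marker of reactive gliosis did not follow C4b. Gfap, the astrocyte intermediate filament, measured 7.37, 11.3 and 11.3 FPKM at 12 months and 7.65, 8.99 and 5.402 FPKM at 2 months (log2 difference 0.45 ± 0.24, adjusted p = 0.198), and the ranges overlapped. The filament gene Vim (-0.28 ± 0.24, adjusted p = 0.409) and the oncostatin M receptor Osmr (-0.70 ± 0.29, adjusted p = 0.113) did not pass the test either. The hyaluronan receptor Cd44 fell at low levels (-0.95 ± 0.22, adjusted p = 0.0242) and kept its call in 1 of the 6 leave-one-out fits. Of the 12 pan-reactive genes kept, 2 rose (Serpina3n and Cxcl10) and 1 fell (Cd44), of which Serpina3n alone reached 0.5 FPKM at both ages, and the list's median lay near that of all genes (median -0.03, against 0.01 over all genes kept). Of the A1 and A2 gene lists, which were defined in other models of inflammation and ischaemia, 1 of 7 tested members rose and 1 of 7 fell in each, and no member fell in any leave-one-out fit. In the list of disease-associated astrocytes, Serpina3n and the calcium-binding protein S100a6 (74.2, 72.3 and 73.9 FPKM, against 44.6, 31.2 and 35.6 FPKM; 1.0 ± 0.13, adjusted p = 0.00529) were the 2 of 7 tested members that rose.

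Of 23 interferon-response genes tested 4 rose and 3 fell, against 10.5% and 10.8% of all genes tested, with a median of -0.49. None fell in the fits without any 1 of the 12-month libraries or without the middle 2-month library, and Ifi44, 1 of the 3 that fell, reached 0.5 FPKM at 2 months alone. Xaf1 (1.29 ± 0.12, adjusted p = 0.00311), Ifi27 (0.97 ± 0.11, adjusted p = 0.00395), Ifit2 (0.74 ± 0.12, adjusted p = 0.00804) and Ifi27l2a (1.73 ± 0.39, adjusted p = 0.02104; kept in 3 of the 6 leave-one-out fits) were the members that rose. Ifi27, an interferon-induced mitochondrial protein, was the most abundant of them, at 179, 205 and 201 FPKM, against 113, 94.3 and 92.8 FPKM. Oas1a, a sensor of double-stranded RNA, fell to 0.544, 0.918 and 0.751 FPKM, against 4.11, 2.13 and 1.48 FPKM (-1.57 ± 0.37, adjusted p = 0.0245), where the deepest 2-month library was the highest of the group and the call held in 2 of the 6 leave-one-out fits. In WT astrocytes the list's median difference over the same ages was -0.76.

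Microglial markers rose in the sorted AD 12-month astrocytes, although they were low at both ages. Of 11 kept markers, 7 of 10 tested rose and none fell. Trem2 and Aif1 were kept through the 12-month group alone and had to be higher there, and of the 7 tested markers that reached 0.5 FPKM at both ages 5 rose. Tyrobp, the adaptor of the TREM2 receptor, had 6.48, 9.34 and 8.41 FPKM in the 12-month libraries, against 1.21, 1.47 and 1.09 FPKM in the 2-month libraries (2.59 ± 0.17, adjusted p = 0.00209), and Aif1 (Iba1) rose at lower levels (2.09 ± 0.35, adjusted p = 0.00929). Trem2 itself reached 0.613, 0.6997 and 0.572 FPKM, against 0.0673, 0.167 and 0.0314 FPKM (2.01 ± 0.43, adjusted p = 0.0184), with a call kept in 3 of the 6 leave-one-out fits. The purine receptor P2ry12 rose by 0.80. Other defining markers did not pass the limits or could not be tested: Tmem119 (0.47 ± 0.16, adjusted p = 0.0706), Cx3cr1 (0.21 ± 0.37, adjusted p = 0.685) and Csf1r (0.624 FPKM in AD 12-month and 0.509 FPKM in AD 2-month astrocytes). The summed level of the recovered markers was 46.3 to 51.9 FPKM in the 12-month libraries, against 21.1 to 24.8 FPKM in the 2-month libraries. The C1q chains, Ccl3, Ccl4 and the protease Ctss (1.70 ± 0.32, adjusted p = 0.0123) are genes of microglia too, and the part of this shift in their result was not tested.

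**Figure D2:**
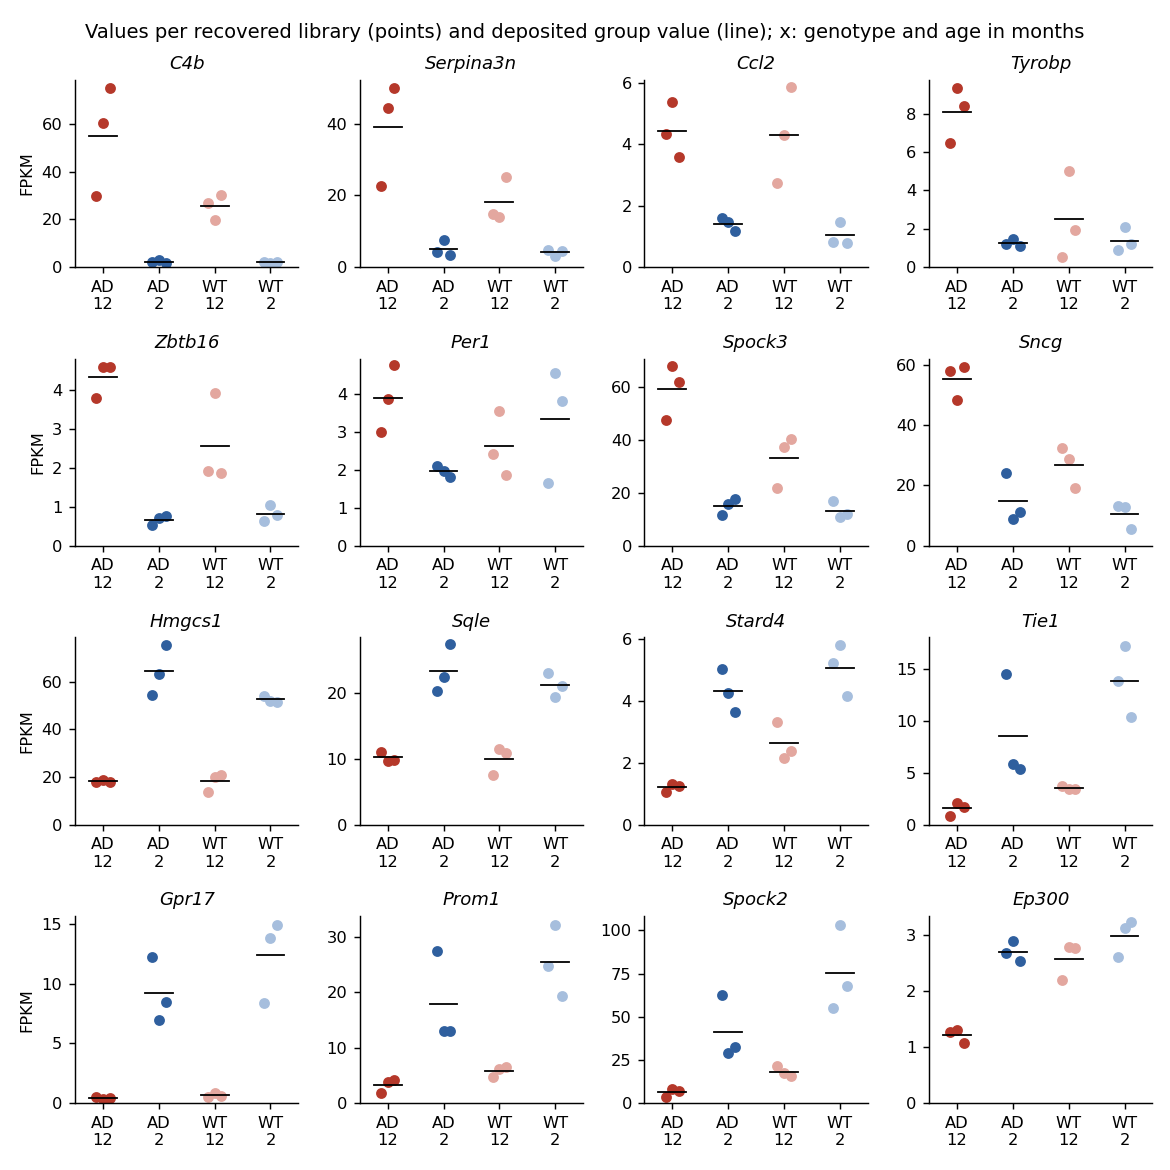
FPKM (vertical axes, from 0) of 16 named genes in the 3 recovered libraries of AD 12-month, AD 2-month, WT 12-month and WT 2-month astrocytes (points), with the deposited group value as a line. In every panel the 3 AD 12-month libraries lie wholly above or wholly below the 3 AD 2-month libraries; for Sncg, Tie1, Prom1 and Spock2 the deepest AD 2-month library stands far above the other two.

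In the list of transcripts induced by glucocorticoids and of metallothioneins, 13 of 15 members kept were higher at 12 months. With limma 6 of 8 tested members rose and none fell (5 of the 6 that reached 0.5 FPKM at both ages rose). Glucocorticoids act in astrocytes through a nuclear receptor that binds DNA directly, and they follow both stress and the daily rhythm. Sgk1, a kinase that regulates ion channels, stood at 429 FPKM in AD 12-month astrocytes, against 22.8 FPKM in AD 2-month astrocytes, and had library values only at 2 months (18.5, 31.9 and 17.8 FPKM). Its group difference of 4.24 was the sixth highest among genes above 5 FPKM, while WT astrocytes differed by 1.55. At 4, 6 and 9 months Sgk1 stood at 94.0, 459 and 66.8 FPKM in AD and at 85.2, 22.6 and 30.7 FPKM in WT. Zbtb16, a zinc-finger repressor, had 3.804, 4.59 and 4.604 FPKM, against 0.522, 0.711 and 0.774 FPKM (2.54 ± 0.17, adjusted p = 0.00209), with no overlap. Pdk4, which limits pyruvate entry into mitochondria, rose to 16.2, 14.2 and 17.6 FPKM, against 6.12, 7.52 and 6.37 FPKM (1.25 ± 0.12, adjusted p = 0.00313). Errfi1, an inhibitor of the EGF receptor, rose by 1.30 with a call that held in 1 of the 6 leave-one-out fits. So did the lipid droplet gene Plin4 by 1.86, but it was kept through the 12-month group alone and had to be higher there. Tsc22d3 (GILZ) stood at 107 against 41.004 FPKM, Cdkn1a at 74.45 against 29.9 FPKM and Fkbp5 at 0.975 against 0.441 FPKM, without library values. In AD astrocytes of 4, 6 and 9 months Tsc22d3 had 49.6, 100 and 40.7 FPKM.

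Metallothioneins, which bind zinc and copper, were part of the same list. Of these, Mt1 and Mt2 are known to be induced by metals and by glucocorticoids. Mt3 rose to 277, 234 and 307 FPKM in the 12-month libraries, against 160.2, 129 and 95.2 FPKM in the 2-month libraries (1.12 ± 0.20, adjusted p = 0.0109). Mt1 was listed at 1829 FPKM at 12 months and 1069 FPKM at 2 months (group difference 0.78; WT 1.18), and Mt2 did not pass the test (0.30 ± 0.14, adjusted p = 0.156). The promoter of Mt1 from RefSeq (GRCm38.p6, chr8:94178839-94179138, + strand, 250 bases before to 50 after the gene start) is shown because its metal response elements, the sites through which metals act on this gene, can be read in it. The capitals mark the 3 matches to the core letters TGCGCNC or TGCACNC.
Mt1: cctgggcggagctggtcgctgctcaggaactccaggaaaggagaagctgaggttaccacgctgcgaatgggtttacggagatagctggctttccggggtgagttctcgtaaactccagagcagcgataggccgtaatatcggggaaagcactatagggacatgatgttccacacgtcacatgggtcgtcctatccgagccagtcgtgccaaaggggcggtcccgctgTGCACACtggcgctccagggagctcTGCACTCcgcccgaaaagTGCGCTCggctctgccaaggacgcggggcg
The matches start at positions -23, 3 and 21 from the gene start. Such a match is common: 28.2% of all 27025 promoters and 40.7% of the 10513 promoters of kept genes hold 1, as do 6 of the 13 promoters of this list. Both strands were searched, and overlapping matches of different motifs were each counted.

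Of 17 tested clock genes 5 rose and 2 fell, against 10.5% and 10.8% of all genes tested. The 5 were 3 without the deepest or shallowest 12-month or the middle 2-month library, and the 2 were none without the shallowest 12-month library or any 1 of the 2-month libraries and 1 without the deepest 12-month library. Per2 reached 0.5 FPKM at 12 months alone. In the core loop, the activators Bmal1 and Clock switch on the Per genes, whose proteins then repress them. The repressors Per1 (3.01, 3.87 and 4.78 FPKM at 12 months, against 2.09, 1.97 and 1.81 FPKM at 2 months; 0.94 ± 0.18, adjusted p = 0.0129) and Per3 (4.07, 2.63 and 3.43 FPKM, against 1.37, 1.45 and 1.504 FPKM; 1.16 ± 0.17, adjusted p = 0.00643) rose, as did the nuclear receptor Nr1d2 (1.02 ± 0.12, adjusted p = 0.004197). Per2 rose as well (1.24 ± 0.27, adjusted p = 0.0193), with a call kept in 3 of the 6 leave-one-out fits. Arntl (Bmal1), the activator that the Per proteins oppose, fell to 1.98, 2.87 and 2.77 FPKM, against 4.92, 3.98 and 3.96 FPKM (-0.74 ± 0.17, adjusted p = 0.0237), and kept its call in 2 of the 6 fits. In WT astrocytes Per1 differed by -0.36 over the same ages. No label gives the hour at which a mouse was killed, and its part in these genes was not tested. The Per1 promoter (RefSeq, GRCm38.p6, chr11:69098699-69098998, + strand) is printed because it carries an E-box, CACGTG, the site that Bmal1 and Clock bind; the capitals mark it, 166 bases before the gene start.
Per1: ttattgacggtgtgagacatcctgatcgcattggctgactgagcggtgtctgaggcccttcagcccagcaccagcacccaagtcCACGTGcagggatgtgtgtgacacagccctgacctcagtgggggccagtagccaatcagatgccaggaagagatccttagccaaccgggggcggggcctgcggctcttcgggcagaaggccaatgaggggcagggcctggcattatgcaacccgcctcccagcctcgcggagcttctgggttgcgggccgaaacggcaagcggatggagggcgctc
An E-box is found in 5 of the 16 clock promoters, in 8.09% of all promoters and in 11.4% of the promoters of kept genes.

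Immediate-early genes are transcribed within minutes of a stimulus such as cell dissociation. By group value 10 of 23 kept lay above 0.5 and 6 below -0.5, against 18.7% and 18.1% of all genes. With limma the tested members were called about as often as all genes. Of 20 tested members 3 rose and 2 fell, against 10.5% and 10.8% of all genes tested, and of the 15 that reached 0.5 FPKM at both ages 2 rose and 2 fell. Without the deepest 2-month library 6 rose, and 1 fell without the middle or shallowest 12-month or the shallowest 2-month library. The stress-induced factor Atf3 rose to 13.8, 12.7 and 9.88 FPKM, against 5.43, 3.202 and 2.84 FPKM (1.69 ± 0.25, adjusted p = 0.00715), and Egr2 rose at low levels (1.26 ± 0.25, adjusted p = 0.0142). Nr4a1 stood at 45.1 FPKM in AD 12-month and 9.705 FPKM in AD 2-month astrocytes. Jun fell to 30.8, 30.3 and 30.1 FPKM, against 67.03, 51.9 and 58.8 FPKM (-0.95 ± 0.11, adjusted p = 0.00397), and its partner Fos overlapped between the ages (117, 90.5 and 99.03 FPKM, against 118, 116 and 101 FPKM; -0.12 ± 0.12, adjusted p = 0.449). Ier5 fell as well (-1.05 ± 0.26, adjusted p = 0.0283), in 2 of the 6 leave-one-out fits.

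Chaperones of the heat-shock response rose, in 7 of 10 tested members with none falling. Dnajb1, the J-domain partner of Hsp70, had 37.6, 31.5 and 36.3 FPKM in the 12-month libraries, against 13.2, 15.04 and 11.7 FPKM in the 2-month libraries (1.40 ± 0.12, adjusted p = 0.00284). The inducible Hsp70 genes Hspa1b (39.3, 36.9 and 50.4 FPKM, against 21.2, 21.6 and 17.5 FPKM; 1.06 ± 0.15, adjusted p = 0.00561) and Hspa1a (0.60 ± 0.11, adjusted p = 0.0112) rose in AD astrocytes, while the group differences in WT astrocytes were 2.13 and 1.77. These 2 genes are near-identical copies, so the split of fragments between them is uncertain. The co-chaperone Bag3 rose by 0.88, and the constitutive Hspa8 was listed at 463 against 205 FPKM. In the endoplasmic reticulum 4 of 12 tested genes rose and none fell, against 10.5% and 10.8% of all genes tested. Among them was the stress factor Ddit3, or CHOP (1.13 ± 0.14, adjusted p = 0.00467). Ddit3 had 42.1, 52.1 and 56.6 FPKM, against 20.3, 23.02 and 25.2 FPKM. The chaperone Hspa5 (BiP) stood at 187 against 105 FPKM.

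Cholesterol synthesis was lower at 12 months. Of the 24 genes on this list, 15 of 21 tested fell and none rose, with a median difference of -0.75. Hmgcs1, an early synthase of the mevalonate pathway, fell to 17.8, 18.7 and 17.8 FPKM in the AD 12-month libraries, against 54.45, 62.997 and 75.4 FPKM in the AD 2-month libraries (-1.80 ± 0.13, adjusted p = 0.00215). Every 12-month library was below every 2-month library.

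Later steps followed: Sqle, the epoxidase at the entry to sterols (11.05, 9.67 and 9.83 FPKM in the 12-month libraries, against 20.3, 22.4 and 27.4 FPKM in the 2-month libraries; -1.18 ± 0.13, adjusted p = 0.00399), Idi1 (-1.11 ± 0.13, adjusted p = 0.00437), Cyp51 (-1.02 ± 0.13, adjusted p = 0.00491), Dhcr7 (-0.87 ± 0.13, adjusted p = 0.00644) and Mvd (-1.07 ± 0.12, adjusted p = 0.00391) all fell. The sterol carrier Stard4 fell to 1.04, 1.32 and 1.25 FPKM, against 5.03, 4.23 and 3.62 FPKM (-1.75 ± 0.16, adjusted p = 0.003003). Insig1, which retains the SREBP activators in the endoplasmic reticulum, did not pass the test (-0.49 ± 0.24, adjusted p = 0.161), nor did Fdps (0.0 ± 0.24, adjusted p = 0.9996). The activator Srebf2 was listed at 30.8 FPKM at 12 months and 48.7 FPKM at 2 months, while Srebf1, which directs fatty acid synthesis, rose to 39.9, 32.7 and 41.2 FPKM, against 22.2, 25.4 and 23.7 FPKM (0.67 ± 0.11, adjusted p = 0.00946). Its classical target Fasn, the fatty acid synthase, fell to 9.35, 7.96 and 8.38 FPKM, against 16.05, 21.97 and 20.5 FPKM (-1.16 ± 0.14, adjusted p = 0.00431). Mature oligodendrocytes make cholesterol as well, and their 13 markers had a median group difference of -0.46 and a range of -1.30 to 0.53, none of them testable. The part of that cell type in the decline was not tested. With the trend of differences on gene length removed, 14 members fell.

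The Hmgcs1 promoter (RefSeq, GRCm38.p6, chr13:119690101-119690400, + strand) is shown as the 1 of 17 promoters of this list that carried the letters TCACNCCAC of the sterol response element, to which SREBP binds. The capitals mark the match, 137 bases before the gene start.
Hmgcs1: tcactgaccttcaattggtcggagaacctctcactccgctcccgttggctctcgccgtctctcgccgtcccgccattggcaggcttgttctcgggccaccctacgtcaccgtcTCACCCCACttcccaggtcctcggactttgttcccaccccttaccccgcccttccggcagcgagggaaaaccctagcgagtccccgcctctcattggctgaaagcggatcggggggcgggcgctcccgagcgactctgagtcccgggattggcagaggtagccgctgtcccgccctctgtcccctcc
These letters occur in 1.44% of all promoters and in 1.39% of those of kept genes, and 4 of the 17 promoters held an E-box.

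Of the lipoprotein and efflux genes 3 of 15 were higher and 4 lower by group value, against 18.7% and 18.1% of all genes. With limma 4 of 10 tested fell, and 2 fell without the middle 12-month library, without the shallowest 2-month library or with the length trend removed. Apoe, the main lipoprotein of astrocytes and the strongest common genetic risk factor for late-onset Alzheimer's disease, was listed at 7090.0 FPKM in AD 12-month and 3839.9 FPKM in AD 2-month astrocytes (group difference 0.90). WT astrocytes held 7026 FPKM at 12 months and 3445 FPKM at 2 months. Under quantile normalization the 2 AD groups received the same value for this gene. Clu, another abundant apolipoprotein, stood at 932 against 943 FPKM, and the lysosomal cholesterol transporter Npc1 stood at 30.8 against 17.3 FPKM. The receptor Lrp1, which takes up apoE and amyloid, fell to 4.79, 4.498 and 5.29 FPKM, against 7.31, 8.505 and 6.98 FPKM (-0.63 ± 0.11, adjusted p = 0.0112).

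Among 18 genes of amyloid precursor processing, 4 of 10 tested fell and none rose, against 10.8% and 10.5% of all genes tested. Bace1, the beta-secretase, fell to 5.98, 5.59 and 5.16 FPKM in the 12-month libraries, against 9.702, 13.2 and 13.1 FPKM in the 2-month libraries (-1.08 ± 0.14, adjusted p = 0.00539). The amyloid-degrading protease Ece1 (-1.27 ± 0.25, adjusted p = 0.0139), the alpha-secretase Adam17 (-0.72 ± 0.10, adjusted p = 0.00546) and the gamma-secretase subunit Ncstn (-0.58 ± 0.10, adjusted p = 0.0111) were the other three. The second alpha-secretase Adam10 (0.43 ± 0.11, adjusted p = 0.0335) did not pass both limits. The amyloid-degrading Ide was listed at 8.101 against 10.25 FPKM.

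Genes of ion and transmitter handling were lower in part. Of 27 transporters, channels and receptors kept, 2 were higher and 11 lower by group value, against 18.7% and 18.1% of all genes. With limma 4 of 17 tested fell and none rose, against 10.8% and 10.5% of all genes tested. The sodium-bicarbonate cotransporter Slc4a4 fell to 13.04, 8.35 and 11.2 FPKM, against 20.005, 21.6 and 19.3 FPKM (-0.91 ± 0.16, adjusted p = 0.0109). The inward rectifier Kcnj10 (Kir4.1), which takes up potassium, fell by 0.71 on the log2 scale (23.7, 22.7 and 28.5 FPKM, against 32.5, 53.6 and 39.2 FPKM; adjusted p = 0.0365), with a call kept in 1 of the 6 leave-one-out fits. Slc38a3 (-0.62 ± 0.13, adjusted p = 0.0168), which exports glutamine, and the chloride channel Ttyh1 (-0.74 ± 0.15, adjusted p = 0.0155) each kept their call in 4 of the 6 fits. The count of 4 was 1 without the middle 2-month library and 2 without the shallowest 2-month or the middle 12-month library or with the length trend removed.

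The main glutamate transporter Slc1a2 (GLT-1) was listed at 47.2 FPKM in AD 12-month astrocytes and 89.8 FPKM in AD 2-month astrocytes (group difference -0.92), while WT astrocytes had 83.8 and 61.002 FPKM at these ages (0.44). At 4, 6 and 9 months Slc1a2 stood at 78.0, 43.9 and 102 FPKM in AD and at 99.6, 55.1 and 80.5 FPKM in WT. Its exons hold 13133 bases, which places it in the longest of the length bins described below. The other glutamate transporter, Slc1a3, differed by -0.22, the GABA transporter Slc6a11 by -1.24 and the water channel Aqp4 by -0.58. Glul, which turns glutamate into glutamine, was the one member of the homeostatic list above 0.5, at 786 FPKM, against 402 FPKM. None of these 5 genes could be tested.

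Endothelial transcripts had the lowest median of the lists examined. All 15 endothelial markers were lower at 12 months (median group difference -2.06), and all 9 that could be tested fell. Tie1, a receptor kinase of endothelium, had 0.8701, 2.11 and 1.71 FPKM in AD 12-month libraries, against 14.4, 5.87 and 5.37 FPKM in AD 2-month libraries (-2.31 ± 0.45, adjusted p = 0.0144), and Tek, the angiopoietin receptor, had 1.45, 3.97 and 3.17 FPKM, against 23.2, 10.4 and 9.46 FPKM (-2.27 ± 0.46, adjusted p = 0.0158). The VEGF receptor Kdr fell to 1.73, 3.08 and 2.27 FPKM, against 18.9, 7.66 and 7.73 FPKM (-2.13 ± 0.38, adjusted p = 0.0116). In each of these genes the deepest 2-month library stood far above the other two, and the deepest 12-month library was the lowest. The summed level of the recovered markers was 30.6 to 80.4 FPKM at 12 months and 148 to 345 FPKM at 2 months, without overlap.

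The junction genes Cdh5 (-2.33 ± 0.54, adjusted p = 0.0236) and Pecam1 (-1.77 ± 0.48, adjusted p = 0.0363) lost their calls when some libraries were left out (kept in 3 of the 6 and in 1 of the 6 fits). In the leave-one-out fits 5 to 7 endothelial genes fell in place of 9, with 5 without the shallowest 12-month, the deepest 2-month or the middle 2-month library. The tight-junction protein Cldn5 was listed at 107 against 441 FPKM and the VEGF receptor Flt1 at 7.39 against 33.2 FPKM. The endothelial transcription factor Sox18 fell to 3.82, 7.08 and 7.28 FPKM, against 77.2, 26.4 and 28.6 FPKM (-2.71 ± 0.45, adjusted p = 0.00943), and Pdgfb, the endothelial signal to pericytes, was at 1.01 against 6.33 FPKM. The glucose transporter Slc2a1, made by endothelium and astrocytes, differed least of the list (-0.70). Mural cell markers did not follow: 3 of 7 were higher and 1 lower by group value, against 18.7% and 18.1% of all genes. Rgs5 stood at 108 against 119 FPKM, and Pdgfrb did not pass the test (-0.61 ± 0.26, adjusted p = 0.123). In WT astrocytes the endothelial median over the same ages was -1.35.

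Some markers of early oligodendrocyte stages fell. Of 5 tested genes of committed precursors 2 fell, Gpr17 and Neu4, against 10.8% of all genes tested. Both were kept through the 2-month group alone. Gpr17, a receptor of committed precursors that is lost on maturation, had 0.523, 0.3902 and 0.414 FPKM in AD 12-month libraries, against 12.2, 6.97 and 8.44 FPKM in AD 2-month libraries (-4.06 ± 0.22, adjusted p = 0.001297). WT astrocytes differed by -4.03 for this gene. Neu4, a sialidase of the same stage, fell to 0.183, 0.181 and 0.124 FPKM, against 2.398, 1.14 and 1.21 FPKM (-2.60 ± 0.34, adjusted p = 0.00506). Enpp6 (-0.37 ± 0.08, adjusted p = 0.02101) and Bcas1 (-0.31 ± 0.15, adjusted p = 0.152), which newly formed oligodendrocytes express, stayed within 0.5. Of 7 precursor markers 4 fell: Pdgfra (-0.99 ± 0.17, adjusted p = 0.00936) in all leave-one-out fits, Tnr (-1.93 ± 0.50, adjusted p = 0.0312) in 1 of the 6, Vcan (-1.49 ± 0.39, adjusted p = 0.0323) in 2 of the 6 and Lhfpl3 (-0.54 ± 0.14, adjusted p = 0.0337) in 0 of the 6. Tnr and Vcan were kept through the 2-month group alone and had to be lower at 12 months, and of the 5 precursor markers that reached 0.5 FPKM at both ages 2 fell. Each leave-one-out fit held 1 or 2 precursor calls, and with the length trend removed 2 fell and 1 rose. Cspg4 (NG2), which pericytes share, narrowly missed the limit (-1.10 ± 0.34, adjusted p = 0.0516). Among mature myelin genes Mbp stood at 1876 against 1682 FPKM, Mog at 976 against 1300.1 FPKM, Aspa at 174 against 121 FPKM and the tight-junction gene Cldn11 at 114 against 284 FPKM. Of all 13 mature markers 5 lay below -0.5 and 1, Aspa, above 0.5 by group value, against 18.1% and 18.7% of all genes. Their median was -0.46, and none could be tested.

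Of the neurogenic markers, 5 of 7 tested neuroblast genes and 5 of 7 tested neural stem and transit-amplifying genes fell, and 3 of each with the length trend removed. Dcx reached 0.5 FPKM at 2 months alone, and 4 of the 6 neuroblast genes that did so at both ages fell. Prom1, a membrane glycoprotein of stem cells that endothelium shares, fell to 1.89, 3.845 and 4.25 FPKM, against 27.5, 12.96 and 13.1 FPKM (-2.37 ± 0.40, adjusted p = 0.00946), with the deepest 2-month library highest as in the endothelial genes. Nes, an intermediate filament of progenitors and of young endothelium, fell by 1.76 on the log2 scale (adjusted p = 0.0135), and the growth factor receptor Egfr fell to 2.47, 2.05 and 2.296 FPKM, against 3.63, 4.34 and 3.45 FPKM (-0.71 ± 0.13, adjusted p = 0.0112). Dcx, a microtubule protein of migrating neuroblasts, fell to 0.1198, 0.0977 and 0.124 FPKM, against 0.6801, 0.627 and 0.422 FPKM (-1.64 ± 0.37, adjusted p = 0.0222; kept in 5 of the 6 fits). Sox11 (-1.61 ± 0.40, adjusted p = 0.0288) and Dlx2 (-1.21 ± 0.29, adjusted p = 0.0257) were each kept in 2 of the 6 fits. In place of 5 neuroblast genes, none fell without the middle 2-month library and 1 fell without the deepest 2-month, the middle 12-month or the shallowest 12-month library. The stem cell count was 3 in every leave-one-out fit other than that without the deepest 12-month library, where it was 6. Sox11 and Dlx2 had no overlap between the ages. The proliferation genes Mki67 (-0.73 ± 0.28, adjusted p = 0.0944) and Top2a (1.19 against 2.59 FPKM) belonged to a list of 23. Of these 9 were lower by group value, against 18.1% of all genes. Of 19 tested 1 fell, and none without the middle 12-month, the deepest 2-month or the middle 2-month library. The list's median was -0.40 in AD and -1.13 in WT astrocytes.

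Ependymal and choroid plexus markers were mostly higher by group value, and few passed the test. Of 11 ependymal genes 8 lay above 0.5 by group value, against 18.7% of all genes, and 3 of 8 tested rose. The 3 were 5 without the deepest 2-month library and 1 without the deepest or middle 12-month or the middle or shallowest 2-month library or with the length trend removed. Of 7 choroid plexus genes 5 lay above 0.5, against the same 18.7%, and 1 of 5 tested rose. Tmem212, a gene of ciliated cells, had 326, 240.02 and 186 FPKM, against 142, 60.9 and 83.9 FPKM (1.44 ± 0.34, adjusted p = 0.0237; kept in 2 of the 6 fits), and the lowest 12-month library stood above the highest 2-month library. Rarres2 (chemerin) rose by 1.01 in all fits. Ttr, the transthyretin of the choroid plexus, was listed at 1839 FPKM in AD 12-month and 649.9 FPKM in AD 2-month astrocytes, and the choroidal folate receptor Folr1 rose (1.26 ± 0.37, adjusted p = 0.0447), with a call kept in 1 of the 6 fits.

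**Figure D3:**
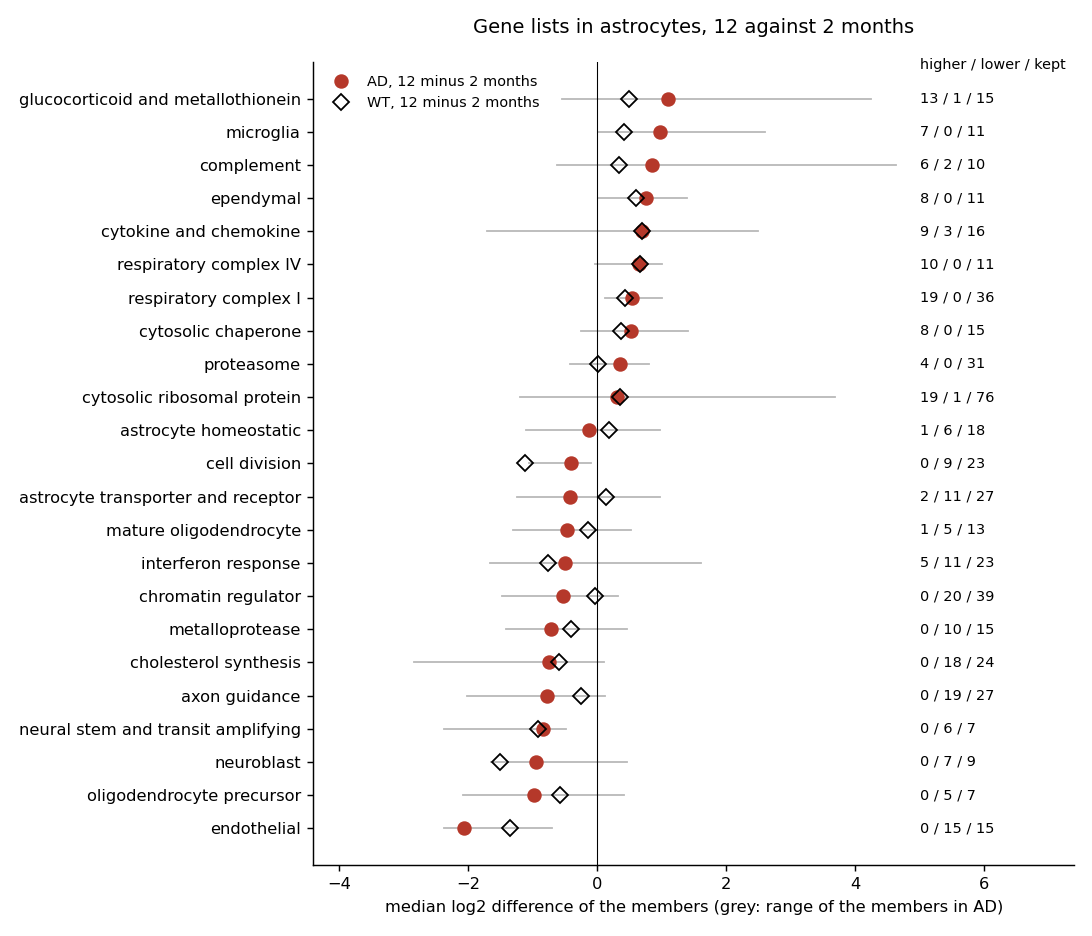
Median log2 difference of the kept members of 23 gene lists in AD astrocytes (12 minus 2 months, red circles) and in WT astrocytes (12 minus 2 months, open diamonds); grey lines span the lowest to the highest member in AD, and the numbers at the right give the members above 0.5, below -0.5 and kept in AD. Endothelial genes lie lowest, at -2.06 in AD and -1.35 in WT, and the glucocorticoid and metallothionein list highest, at 1.10 and 0.49.

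Axon guidance genes were lower. Of 27 axon guidance genes kept, 19 were lower and none higher by group value, against 18.1% and 18.7% of all genes. With limma 12 of 22 tested fell (9 of the 18 that reached 0.5 FPKM at both ages). Most of these proteins repel growing axons, and several also shape vessels. The semaphorin co-receptor Nrp1 fell to 1.804, 2.22 and 2.51 FPKM at 12 months, against 9.56, 5.61 and 5.23 FPKM at 2 months (-1.55 ± 0.25, adjusted p = 0.00819), and the phosphatase Ptprs, a receptor of chondroitin sulphate, fell to 2.25, 2.05 and 2.06 FPKM, against 4.43, 4.46 and 4.57 FPKM (-1.05 ± 0.09, adjusted p = 0.00298). Sema3d (-1.51 ± 0.19, adjusted p = 0.004795), the ephrin receptor Epha4 (-1.11 ± 0.14, adjusted p = 0.00446), Sema3c (-2.02 ± 0.49, adjusted p = 0.02605; kept in 3 of the 6 fits) and Slit1 (-1.56 ± 0.38, adjusted p = 0.0267; kept in 2 of the 6 fits) fell too. Slit1 was kept through the 2-month group alone and had to be lower at 12 months. Nrp1 and Sema3c had their highest value in the 2-month library that was also highest in endothelial markers, and the part of endothelial cells in these was not tested. In Ptprs, Epha4 and Sema3d that library did not stand far above the others, though Epha4 was highest in it (5.17, 4.72 and 4.09 FPKM).

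Synapse-related genes split. Sncg, a small protein of axon terminals, rose (57.85, 48.5 and 59.4 FPKM in the 12-month libraries, against 24.04, 9.003 and 11.3 FPKM in the 2-month libraries; 2.02 ± 0.34, adjusted p = 0.00953), with every 12-month library above every 2-month library. Of 9 neuronal markers tested, none passed the limits. Thbs2, a thrombospondin that promotes synapse formation, was listed at 3.97 against 0.8304 FPKM, and its relative Thbs3 fell (-0.98 ± 0.20, adjusted p = 0.0157; kept in 2 of the 6 fits). The proteoglycan Ncan of perineuronal nets fell to 3.165, 1.91 and 2.33 FPKM, against 5.88, 11.2 and 5.84 FPKM (-1.55 ± 0.30, adjusted p = 0.0134), and the matrix protein Sparc stood at 256 against 679 FPKM.

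Of the protease inhibitors, 4 of 16 tested rose and 2 fell, against 10.5% and 10.8% of all genes tested. The 2 that fell were 1 in each leave-one-out fit other than that without the shallowest 2-month library, and 1 with the length trend removed. Of the metalloproteases 6 of 14 tested fell and none rose. Spock3, a testican that inhibits membrane-type metalloproteases, rose to 47.5, 67.7 and 61.7 FPKM, against 11.5, 15.9 and 17.7 FPKM (1.98 ± 0.20, adjusted p = 0.00353), while its relative Spock2 fell to 3.65, 8.37 and 7.18 FPKM, against 62.6, 28.9 and 32.7 FPKM (-2.67 ± 0.39, adjusted p = 0.006798). Spock2 was highest in the 2-month library that was also highest in endothelial markers, and the part of endothelial cells in it was not tested. The cysteine protease inhibitor Cst3 was listed at 7537 against 3682 FPKM (group difference 1.04), and the serine protease inhibitor Spint2 rose (1.31 ± 0.31, adjusted p = 0.0239; kept in 2 of the 6 fits). Timp4 (0.49 ± 0.24, adjusted p = 0.167) and Pcsk1n (0.48 ± 0.13, adjusted p = 0.0348) did not pass both limits. Among the proteases the aggrecanase Adamts4, which oligodendrocytes express, fell to 19.9, 24.1 and 23.3 FPKM, against 39.98, 52.8 and 61.1 FPKM (-1.17 ± 0.17, adjusted p = 0.00665), with Adam15 (-0.98 ± 0.14, adjusted p = 0.006515) and the gelatinase Mmp2 (-0.93 ± 0.15, adjusted p = 0.00882).

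Nuclear genes of the respiratory chain were higher at 12 months. Of 36 complex I genes 19 lay above 0.5 and none below -0.5, and 12 of 25 tested rose; of 11 complex IV genes 10 lay above 0.5, and 5 of 6 tested rose. Under quantile normalization 10 complex I and 3 complex IV genes lay above 0.5, and with the 2-month and 4-month groups as baseline 6 complex IV genes. Ndufb10, an accessory subunit of complex I, had 194, 190.2 and 202 FPKM in the AD 12-month libraries, against 115, 111 and 107 FPKM in the AD 2-month libraries (0.82 ± 0.07, adjusted p = 0.00298). Ndufa2 (1.01 ± 0.14, adjusted p = 0.00546), Ndufb7 (0.91 ± 0.09, adjusted p = 0.00311), the complex III subunits Uqcr10 (1.01 ± 0.11, adjusted p = 0.00395) and Uqcrh (0.78 ± 0.09, adjusted p = 0.00399), Cox7b of complex IV (1.0 ± 0.12, adjusted p = 0.00426) and Atp5k of ATP synthase (1.04 ± 0.17, adjusted p = 0.00903) rose likewise. Of 7 tested genes encoded by mitochondrial DNA none rose and 2 fell: mt-Nd6 fell to 152, 115 and 122 FPKM, against 331, 335 and 226 FPKM (-1.18 ± 0.18, adjusted p = 0.00764), mt-Nd3 fell by 1.18 on the log2 scale (adjusted p = 0.00771), and the median over all 13 was 0.02.

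Ribosomal proteins and the proteasome had medians of 0.30 and 0.35. Of 66 tested ribosomal protein genes 14 rose and 1 fell, and of 27 tested proteasome genes 3 rose and none fell, against 10.5% and 10.8% of all genes tested. The 14 were 6 without the middle 12-month, the middle 2-month or the shallowest 2-month library, 8 without the shallowest 12-month library and 7 with the length trend removed. The 3 were 7 without the deepest 12-month, 5 without the middle 12-month and 6 without the middle 2-month library. Rps25 rose to 66.6, 80.4 and 74.7 FPKM, against 41.5, 32.6 and 26.98 FPKM (1.15 ± 0.16, adjusted p = 0.00635). Psmc3, an ATPase of the regulatory particle, rose to 87.4, 88.1 and 95.04 FPKM, against 49.03, 56.1 and 50.5 FPKM (0.80 ± 0.09, adjusted p = 0.00381), and the catalytic subunit Psmb6 rose by 0.70. Rpl29 fell to 21.8, 19.98 and 20.2 FPKM, against 48.7, 47.6 and 47.05 FPKM (-1.20 ± 0.07, adjusted p = 0.00142); it has many processed copies in the genome, so its counting is uncertain.

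Large chromatin regulators were lower. Of 39 genes 20 lay below -0.5 and none above 0.5, and 15 of 34 tested fell (14 of the 32 that reached 0.5 FPKM at both ages). The acetyltransferases Ep300 (1.26, 1.31 and 1.08 FPKM at 12 months, against 2.67, 2.89 and 2.52 FPKM at 2 months; -1.08 ± 0.13, adjusted p = 0.00424) and Crebbp (3.05, 2.76 and 2.44 FPKM, against 5.77, 5.33 and 4.86 FPKM; -0.93 ± 0.12, adjusted p = 0.00506) fell without overlap. The methyltransferase Kmt2c (-0.79 ± 0.12, adjusted p = 0.00644) and the demethylase Kdm6b (-1.45 ± 0.19, adjusted p = 0.00506) fell as well. Of 17 tested splicing genes 3 fell and none rose, against 10.8% and 10.5% of all genes tested. They were the core factor Prpf8 (-1.11 ± 0.09, adjusted p = 0.00284), the repressor Ptbp1 (-1.14 ± 0.14, adjusted p = 0.00437) and Hnrnpa0 (-1.35 ± 0.16, adjusted p = 0.00437). Prpf8 had 5.46, 5.54 and 4.79 FPKM, against 12.1, 11.3 and 11.1 FPKM. Without the middle 2-month library 7 chromatin regulators fell, and with 1 in place of 0.1 added to the FPKM 8 fell. In WT astrocytes the list's median was -0.03.

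The difference between the ages varied with gene length over all genes. The kept genes were split by exon length into 5 bins of equal size. In the shortest bin (3114 genes, 16 to 1453 bases) the median difference was 0.37, with 42.4% above 0.5, and in the longest bin (6805 to 41324 bases) it was -0.23, with 4.53% above 0.5 and 24.95% below -0.5. WT astrocytes had medians of 0.32 and -0.12 in the same bins. Complex I genes have a median exon length of 1644 bases and chromatin regulators of 13786 bases. With the length trend removed from each library, 8 complex I genes rose in place of 12, 2 complex IV genes in place of 5 and 2 cytokine genes in place of 6, and 4 chromatin regulators fell in place of 15, while 4 chromatin regulators rose. Complex III had 2 genes that rose in place of 4 and fatty acid synthesis 1 that fell in place of 3, while 2 metalloproteases rose in place of none and no complement gene fell in place of 1. What moved with gene length was not tested.

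**Figure D4:**
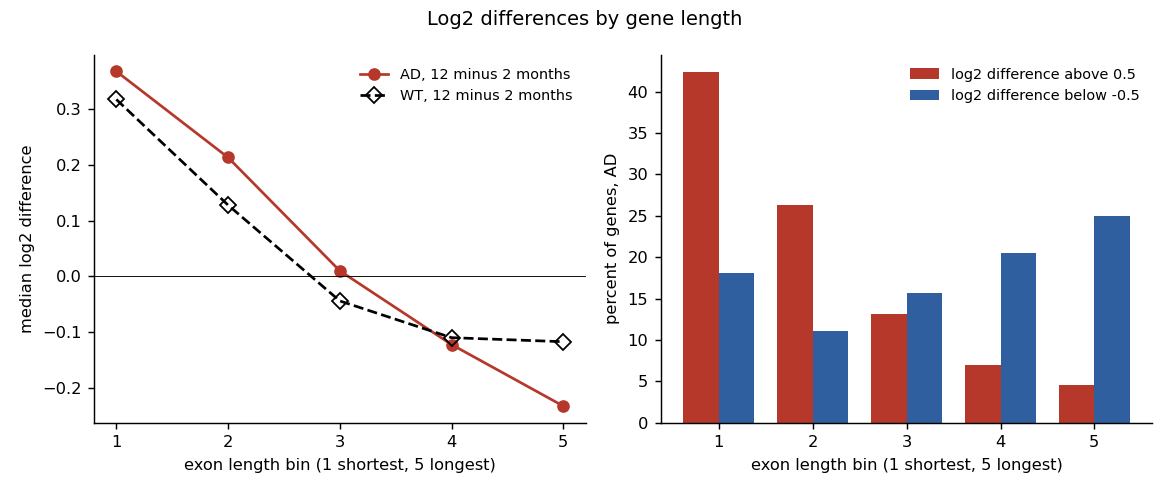
Left, median log2 difference by bin of exon length (1 the shortest, 5 the longest) in AD (12 minus 2 months, red) and WT (12 minus 2 months, open diamonds) astrocytes. Right, percent of AD genes above 0.5 (red) and below -0.5 (blue); the AD median goes from 0.37 in the shortest to -0.23 in the longest bin.

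Antioxidant genes rose in 5 of 16 tested members with none falling, against 10.5% and 10.8% of all genes tested. The glutathione transferase Gsta4 was among them (1.08 ± 0.13, adjusted p = 0.00437), at 58.9, 46.7 and 55.03 FPKM, against 29.2, 22.3 and 24.8 FPKM. Gpx4, which reduces lipid peroxides, was listed at 457 against 239 FPKM. Iron import and export fell together: the transferrin receptor Tfrc to 6.38, 7.43 and 6.86 FPKM, against 17.8, 15.1 and 15.5 FPKM (-1.21 ± 0.10, adjusted p = 0.00295), and ferroportin, Slc40a1, to 0.782, 1.97 and 1.02 FPKM, against 9.71, 4.54 and 4.87 FPKM (-2.26 ± 0.40, adjusted p = 0.0109). Both transporters are also expressed by brain endothelium, whose part in them was not tested. Both were highest in the 2-month library that was highest in the endothelial markers, far above the others in Slc40a1 alone.

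Growth factors differed by gene. Vegfb rose to 29.4, 31.6 and 35.9 FPKM, against 17.4, 16.1 and 17.7 FPKM (0.92 ± 0.10, adjusted p = 0.00391), and midkine, Mdk, rose by 0.81. Wnt7a, which maintains the blood-brain barrier, fell to 5.56, 4.41 and 5.603 FPKM, against 10.8, 12.3 and 10.1 FPKM (-1.08 ± 0.13, adjusted p = 0.00431). Vegfa, the main angiogenic factor of astrocytes, fell by 0.76 on the log2 scale (adjusted p = 0.031996), with a call kept in 1 of the 6 leave-one-out fits. Arl4d, a small GTPase of membrane traffic, rose to 50.6, 104 and 118 FPKM, against 17.7, 15.6 and 8.81 FPKM (2.66 ± 0.39, adjusted p = 0.00644).

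The study defined age-up and age-down astrocyte genes, those that moved one way at every later age in WT astrocytes, and these lists share no library with the AD comparison but were chosen in the same study. Of 192 kept age-up genes 160 lay above 0.5 in AD and 1 below -0.5, with 109 of 155 tested rising and 1 falling (95 and 1 of the 141 at 0.5 FPKM or more at both ages). Of 180 kept age-down genes 175 lay below -0.5 and none above 0.5, with 136 of 154 tested falling (109 of 118 at 0.5 FPKM or more at both ages). Their median differences were 0.91 and -1.23 in AD and 1.01 and -1.03 in WT astrocytes. The WT medians follow from the choice and are no evidence of direction. Of 32 astrocyte genes that the study named singly, 7 of 27 tested rose in AD and 12 fell (6 and 9 of the 21 at 0.5 FPKM or more at both ages). Those that fell included Nrp1, Ptprs and Slit1, the phosphoinositide 3-kinase subunit Pik3r4 (-0.80 ± 0.11, adjusted p = 0.00638), the actin-bundling Fscn1 (-0.94 ± 0.15, adjusted p = 0.007901) and the chloride transporter Clcn6 (-0.97 ± 0.12, adjusted p = 0.00467). Midnolin, Midn, which carries nuclear proteins to the proteasome, fell to 0.476, 0.551 and 0.755 FPKM, against 4.28, 2.98 and 2.45 FPKM (-2.24 ± 0.25, adjusted p = 0.00388), and the lysosomal mannosidase Man2b2 to 1.28, 1.33 and 1.53 FPKM, against 4.97, 3.3998 and 3.11 FPKM (-1.38 ± 0.19, adjusted p = 0.00562). Prrc2a (-1.46 ± 0.18, adjusted p = 0.00432) and, at low levels, Sema4f (-1.71 ± 0.38, adjusted p = 0.0209; kept in 4 of the 6 fits) also fell. Sema4f and Slit1 were kept through the 2-month group alone and had to be lower at 12 months. Mmp16, Scoc and Thbs1, named by the study as well, stood at 0.331 against 0.641, 20.02 against 13.7 and 0.458 against 0.917 FPKM in AD 12-month against AD 2-month astrocytes.

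The same ages were set against each other in WT mice, where 975 of 13126 tested genes rose and 965 fell by limma. By group value 2418 of the 15590 genes (15.5%) were higher and 2119 (13.6%) lower in WT. Across the 15590 genes the AD and WT differences of group values correlated at 0.564 (Pearson; across genes, which are not independent replicates). Of the 2912 genes higher in AD at 12 months 1507 were also higher in WT and 92 lower, and of the 2819 lower genes 1218 were also lower in WT and 154 higher. When the difference between the 2 age differences was tested over 12 libraries, 82 genes (0.625%) lay above 0.5 and 167 (1.27%) below -0.5 at an adjusted p below 0.05, of 13126 tested. With 1 library left out, 2 to 164 genes passed the adjusted p, in place of 253. It was 2 without the shallowest WT 12-month library, 9 without the middle AD 2-month library and 12 without the middle WT 2-month library. C4b differed by 4.63 in AD and 3.61 in WT astrocytes, Serpina3n by 2.95 and 2.09, Tyrobp by 2.60 and 0.79, and Zbtb16 by 2.53 and 1.52, and the contrast of the ages between genotypes did not pass the threshold for these 4 genes (adjusted p = 0.253, 0.3595, 0.163 and 0.1497 by limma).

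Between 2 and 12 months the deposited group values allow the course of each list to be followed. The mean log2 level of endothelial markers was 5.70, 5.33, 4.44, 4.77 and 3.74 at 2, 4, 6, 9 and 12 months in AD and 6.29, 6.24, 4.10, 4.70 and 4.90 in WT mice. Cholesterol genes were at 4.04, 3.29, 3.53, 3.05 and 3.18 in AD mice, so that the 4-month group already lay near the 12-month group. Complex I genes stood at 6.13, 6.16, 6.82, 5.87 and 6.70 in AD, with the 6-month and 12-month groups high, and chromatin regulators at 1.61, 1.75, 1.01, 1.84 and 1.08, with the same 2 groups low. The WT 6-month group shared this pair of values (6.97 and 0.75), and the WT 12-month group did not (6.39 and 1.70). Glucocorticoid and metallothionein genes were at 3.16, 3.89, 4.28, 3.71 and 4.43 in AD, and microglial markers at 0.15, 0.79, 1.18, 0.60 and 1.19. These age series hold 1 group value a point and were not tested.

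**Figure D5:**
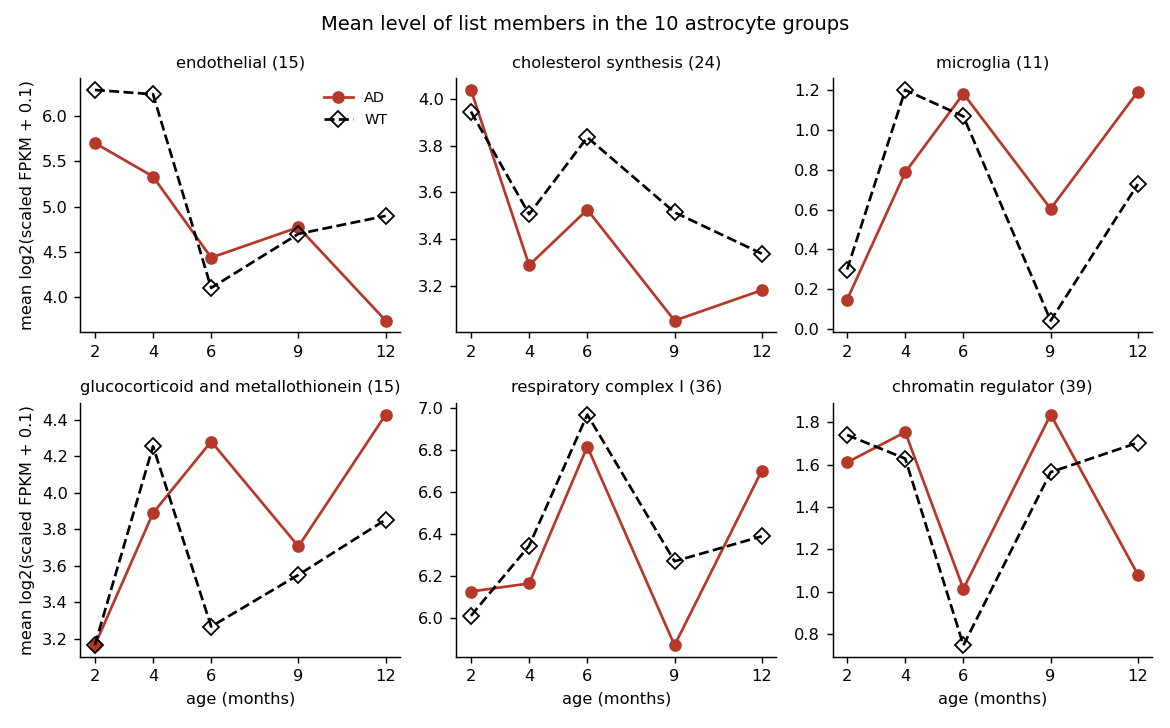
Mean of log2(scaled FPKM + 0.1) over the members of 6 lists (vertical axes, each panel with its own range) at 2, 4, 6, 9 and 12 months in AD (red) and WT (open diamonds) astrocytes, 1 deposited group value a point. In AD, endothelial genes go from 5.70 at 2 months to 3.74 at 12 months, and complex I and chromatin genes set the 6-month and 12-month groups apart from the other ages.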

How the data were processed

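The deposited table holds FPKM for 35999 Ensembl genes, computed by the authors, with 1 value a group that is the mean over 3 libraries (1 mouse each). The study's methods name HISAT2 and featureCounts and the submitters' processing notes mm8 and Bowtie 0.12.2, so no positions of the table's build are given. GENCODE names and exon lengths matched all but 117 IDs, and promoters came from RefSeq (GRCm38.p6).

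The 10 astrocyte groups were scaled by the median-of-ratios method (22232 genes), 0.1 was added, and genes at 0.5 FPKM or more in either AD group were kept. The comparison of group values has no test.

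After the data had been seen, library values were solved from each group value as sums of whole fragments. The sum over the 3 libraries could reach about 25000, with a relative tolerance of 4e-15 (Python 3.11.15, NumPy 2.4.6, pandas 2.3.3, numba 0.67.0). A gene was solved only where exactly 1 set of whole fragments fit, which held for 86.3% of kept genes in AD 12-month and 86.9% in AD 2-month astrocytes. In these groups 295 and 260 genes of the table were over the limit. The other genes without library values had no fit or more than 1. Of 3000 values shifted by 1e-07 a group, 0 could be solved. Among 60 shifted values with many fragments 0 and 4 could be solved in these groups, so library values of abundant genes are less certain. limma 3.58.1 (R 4.3.3, trended variance, Benjamini-Hochberg adjustment) was run on the scaled log2 values. The methods were tested on simulated data. The depth of 19.1 to 22.4 M fragments limits low genes most.

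Named genes were the 12 highest and 12 lowest by group difference at 5 FPKM or more, the astrocyte genes the study named and the genes of the label check, and, of each list, members with the largest differences, defining members and members on the other side. Other genes were added after their values were seen, and some genes covered by this rule are not reported here. The comparison, lists and motifs were chosen with earlier results of these data known.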

Additional observations from a re-analysis of the deposited data

Results flagged for a closer look

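These genes differed between genotypes in the change over the same ages: the first value given is the AD difference (12 minus 2 months) minus the WT difference on the log2 scale, with its standard error, from limma over 12 libraries (3 a group) with Benjamini-Hochberg adjustment. Each fit that left out 1 of the 12 libraries was run as well. Those with opposite signs of the difference in AD and WT astrocytes were the complement regulator Cd55 (1.24 ± 0.24, from 0.95 in AD and -0.29 in WT, adjusted p = 0.0375, below 0.05 in 1 fit), the immediate-early factor Jun (-1.34 ± 0.17, from -0.95 in AD and 0.39 in WT, adjusted p = 0.0201, below 0.05 in 11 fits), the lipoprotein receptor Lrp1 (-0.75 ± 0.16, from -0.63 in AD and 0.13 in WT, adjusted p = 0.0453, below 0.05 in 1 fit) and the ribosomal protein gene Rpl29 (-1.78 ± 0.31, from -1.20 in AD and 0.58 in WT, adjusted p = 0.0284, below 0.05 in 3 fits). Also in this set were the RNA-binding protein Hnrnpa0 (-1.48 ± 0.23, from -1.35 in AD and 0.14 in WT, adjusted p = 0.0246, below 0.05 in 8 fits), the mitochondrially encoded complex I gene mt-Nd6 (-1.56 ± 0.28, from -1.18 in AD and 0.38 in WT, adjusted p = 0.0301, below 0.05 in 4 fits), the barrier ligand Wnt7a (-1.38 ± 0.24, from -1.08 in AD and 0.31 in WT, adjusted p = 0.0283, below 0.05 in 4 fits), the angiogenic factor Vegfa (-1.26 ± 0.26, from -0.76 in AD and 0.50 in WT, adjusted p = 0.0434, below 0.05 in 2 fits) and the processed pseudogene Gm8210 (7.33 ± 0.88, from 3.84 in AD and -3.49 in WT, adjusted p = 0.0201, below 0.05 in 11 fits). Genes whose differences had the same sign and were larger in AD, were the mevalonate enzyme Mvd (-0.94 ± 0.16, from -1.07 in AD and -0.13 in WT, adjusted p = 0.0275, below 0.05 in 5 fits), the fatty acid synthase Fasn (-1.07 ± 0.21, from -1.16 in AD and -0.09 in WT, adjusted p = 0.0375, below 0.05 in 3 fits), the acetyltransferase Ep300 (-0.87 ± 0.18, from -1.08 in AD and -0.21 in WT, adjusted p = 0.0434, below 0.05 in 1 fit), its relative Crebbp (-0.89 ± 0.17, from -0.93 in AD and -0.03 in WT, adjusted p = 0.0355, below 0.05 in 3 fits) and the ribosomal RNA gene CT010467.1 (-2.78 ± 0.27, from -2.89 in AD and -0.11 in WT, adjusted p = 0.00667, below 0.05 in 12 fits). Genes whose differences had the same sign and were larger in WT, were the inducible chaperone Hspa1a (-1.17 ± 0.20, from 0.60 in AD and 1.77 in WT, adjusted p = 0.0276, below 0.05 in 5 fits), its copy Hspa1b (-1.06 ± 0.22, from 1.06 in AD and 2.12 in WT, adjusted p = 0.0432, below 0.05 in 2 fits) and the methionine salvage enzyme Mri1 (-0.74 ± 0.15, from 0.35 in AD and 1.09 in WT, adjusted p = 0.042, below 0.05 in 1 fit).

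Of the 4 groups, CT010467.1 was low in AD 12-month astrocytes alone (9.596, 8.802 and 8.42 FPKM, against 75.2, 62.8 and 63.6 FPKM in AD 2-month, 43.3, 70.8 and 72.4 FPKM in WT 12-month and 52.7, 70.2 and 74.3 FPKM in WT 2-month libraries). Gm8210 had 10.7, 9.93 and 9.55 FPKM in AD 12-month libraries, against 0.492, 0.853 and 0.536 FPKM in AD 2-month libraries, and 0.731, 0.314 and 0.212 FPKM in WT 12-month libraries, against 1.42, 10.4 and 9.49 FPKM in WT 2-month libraries, and is a copy of another gene, so its counting is uncertain. Across all genes, the number that passed this contrast was 2 to 164 with 1 library left out, in place of 253. The contrast used the 12-month and 2-month groups alone. AD astrocytes at 6 and 9 months held 2.76 and 6.48 FPKM of Hnrnpa0, 2.36 and 5.70 of Crebbp and 8.45 and 14.8 of Fasn. The WT 6-month group held 2.82, 1.90 and 8.26 FPKM, near the AD 12-month group (2.82, 2.75 and 8.57 FPKM). Mvd and Wnt7a were not low there (22.6 and 13.1 FPKM, against 11.1 and 5.19 FPKM in AD 12-month astrocytes). These other ages were not tested.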

How the results depend on the processing

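No paired analysis was possible because the deposited columns carry no replicate number. By group values, 2912 genes lay above and 2819 below the limits; with 1 in place of 0.1 added these were 1931 and 1554, with no filter 4983 and 5251, with a filter of 5 FPKM 1284 and 785, and with a limit of 1 in place of 0.5 they were 1000 and 980. Other scalings, a removed length trend and a baseline of the 2-month and 4-month groups together left them at 2524 to 2857 and 2557 to 3033. Quantile normalization set the Apoe difference to 0. With 1 library left out limma called 951 to 1382 genes higher, against 1399, and 830 to 1190 genes lower, against 1450; the lowest counts were those without the middle AD 2-month library. Adding 1 gave 1189 and 999 and removing the length trend 1217 and 1097. Of 145 named genes called by limma, 104 kept the call under all limma alternatives run and none changed sign. Genes at the 0.5 FPKM filter rest on few fragments, and abundant genes without library values could not be tested.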

Other observations

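The extremes of the table outside the lists were mostly multi-copy and non-coding genes. Of 895 processed pseudogenes kept, 425 were higher and 100 lower at 12 months (median 0.45), and of 460 lincRNAs 201 were higher and 63 lower (median 0.42), while of 12595 protein-coding genes 1802 were higher and 2220 lower (median -0.03). Small nuclear RNAs went the other way, with 19 of 102 higher and 58 lower (median -0.76), against a median of 0.04 in WT astrocytes.

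The highest group difference, in the immunoglobulin segment Igkv6-32, came from 1 of the AD 12-month libraries (0, 34.6 and 0 FPKM, against 0, 0 and 0 FPKM in AD 2-month libraries; adjusted p = 0.367 by limma). The pseudogene Gm13443 spread widely over the 12-month libraries (5.62, 66.6 and 132 FPKM, against 2.48, 2.41 and 2.799 FPKM), and its call held in 1 of the 6 leave-one-out fits. Gapdh (35.7, 1.699 and 14.6 FPKM, against 0.816, 1.18 and 1.38 FPKM) and Rpl26 (45.95, 45.5 and 7.73 FPKM, against 3.69, 2.17 and 1.58 FPKM) have many processed copies, so their counts are uncertain. Gm43089 (13.5 against 0.2503 FPKM), Gm9825 (13.5 against 0.514 FPKM), Atp6v0c-ps2 (149 against 12.9 FPKM), Gm11361 (44.9 against 3.82 FPKM) and Gm42756 (34.1 against 3.22 FPKM) completed the highest 12, and the group values of WT astrocytes were higher at 12 months in each of these 5.

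Among the lowest 12, Klk1b22, a kallikrein with near-identical neighbours, had no fragment in the AD 12-month libraries, against 9.84, 1.63 and 5.75 FPKM in the AD 2-month libraries, so that its plotted difference depends on the 0.1 added. The lectin Clec2d fell to 0.514, 0.815 and 0.994 FPKM, against 13.7, 6.92 and 6.23 FPKM (-3.32 ± 0.34, adjusted p = 0.00376 by limma), and the actin regulator Rflnb to 1.17, 2.22 and 1.34 FPKM, against 20.1, 10.6 and 9.702 FPKM (-2.98 ± 0.34, adjusted p = 0.004065). Both had the high 2-month library that the endothelial markers had, and the part of endothelial cells in them was not tested. The miRNA gene Gm24270 fell to 0.782, 1.73 and 0.9197 FPKM, against 19.2, 13.5 and 13.6 FPKM, and the mitochondrial transfer RNA mt-Tr to 0.655, 0 and 2.31 FPKM, against 8.39, 10.6 and 3.81 FPKM, with a call kept in 1 of the 6 leave-one-out fits. The lincRNA Gm26917 was listed at 36.6 FPKM in AD 12-month and 393 FPKM in AD 2-month astrocytes. WT astrocytes held 456 FPKM at 12 months and 423 FPKM at 2 months.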
